A study of Mus musculus with 16 samples.

Results

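Expression of glutathione transferase genes and of the cytochrome P450 gene Cyp2a5 was followed in mouse kidney after glycerol-induced rhabdomyolysis. The set held 8 genes, taken by symbol from a matrix of 20525 genes: the alpha-class transferases Gsta1, Gsta2 and Gsta4, the mu-class Gstm1, Gstm2 and Gstm3, the pi-class Gstp1, and Cyp2a5. All 8 were found. They were chosen with their glycerol responses already known, so their differences between glycerol and PBS are given as a description, without a test.

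The kidneys came from mice aged 8 weeks on a background labelled C56BL/6. WT and C3-/- glycerol groups had received 7.5 ml/kg of 50% glycerol into a thigh muscle, which breaks down muscle and releases myoglobin that reaches the kidney. WT and C3-/- PBS groups were the controls. The C3-/- genotype targets complement component C3, and the labels do not say how the allele was made or which part of the gene it lacks. Libraries labelled C3-/- held C3 transcript and were not lower than WT as a group: C3 had 8008.0, 1457.3, 5495.3 and 1587.2 normalized counts in C3-/- glycerol libraries, against 3728.7, 1711.7, 2782.8 and 4717.5 in WT glycerol libraries. It had 819.4, 1139.7, 860.0 and 563.8 in C3-/- PBS libraries, against 334.9, 361.4, 470.5 and 425.0 in WT PBS libraries. A count over the whole gene cannot show whether a part of it is missing, so the genotype labels could not be checked here, and C3-/- below stands for the libraries labelled so. Each of the 4 groups had 4 libraries of RNA from frozen kidney sections of 30 µm. The labels give no sex, no time between injection and sampling, and no statement that libraries came from separate animals, so a p-value here reflects the spread among the deposited libraries, part of which could be technical. In such bulk sections, fewer cells of a type and less RNA per cell cannot be told apart.

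Glutathione transferases join the tripeptide glutathione to reactive electrophiles, among them drugs and products of lipid peroxidation, and the conjugates are then exported and excreted. Several are induced through the transcription factor Nrf2, and the proximal tubule of the kidney has a high turnover of glutathione. Cyp2a5 is a mouse P450 enzyme known as a coumarin hydroxylase and, in liver, as a gene induced by many hepatotoxic agents.

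Some features of the libraries cut across the groups. The numbers in the sample descriptions ran once through 13 libraries, and 3 further libraries carried the numbers 3, 4 and 5 again: WT glycerol library 4 and C3-/- glycerol libraries 1 and 3, here called the repeated-number libraries. Transcripts of the Y chromosome were present in all 8 WT libraries, in C3-/- glycerol libraries 3 and 4 and in C3-/- PBS library 4 (Ddx3y above a normalized count of 10), and absent by that rule from the other 5 C3-/- libraries. Xist, a transcript of the X chromosome, had 16098 to 35410 normalized counts in those 5 libraries. It had 4 to 105 in the libraries with Y-linked transcripts. The labelled genotypes were thus not balanced for these sex-linked transcripts. The deposited values summed to between 25810749 and 38388663 per library. The repeated-number libraries had the highest sums: 38388663 in WT glycerol library 4, and 35808689 and 36150295 in C3-/- glycerol libraries 1 and 3. The next highest was 34013927, in C3-/- PBS library 4. WT glycerol library 4 listed 3374 genes at 0, and the other 15 libraries listed 190 to 982.

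The promoters of 4 genes are shown: those of Gsta1 and Gsta2, close relatives that behaved differently, and those of Gstp1 and Cyp2a5, which were high in the same libraries. Each is the 250 bases before the RefSeq start on GRCm38.p6, read 5′ to 3′ on the gene's strand, and capitals mark matches to the motifs searched on both strands.
Gsta1 (chr9:78230419-78230668, plus strand): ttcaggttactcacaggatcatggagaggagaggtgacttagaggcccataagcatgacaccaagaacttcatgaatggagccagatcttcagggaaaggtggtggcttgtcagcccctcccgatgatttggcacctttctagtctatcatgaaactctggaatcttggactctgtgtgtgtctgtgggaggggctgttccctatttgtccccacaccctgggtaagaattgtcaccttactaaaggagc
Gsta2 (chr9:78347146-78347395, minus strand): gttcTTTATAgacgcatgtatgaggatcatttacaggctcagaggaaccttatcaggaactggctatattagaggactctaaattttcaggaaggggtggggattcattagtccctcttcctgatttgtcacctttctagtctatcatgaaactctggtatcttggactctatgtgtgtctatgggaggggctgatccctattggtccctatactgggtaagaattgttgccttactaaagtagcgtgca
Gstp1 (chr19:4037913-4038162, minus strand): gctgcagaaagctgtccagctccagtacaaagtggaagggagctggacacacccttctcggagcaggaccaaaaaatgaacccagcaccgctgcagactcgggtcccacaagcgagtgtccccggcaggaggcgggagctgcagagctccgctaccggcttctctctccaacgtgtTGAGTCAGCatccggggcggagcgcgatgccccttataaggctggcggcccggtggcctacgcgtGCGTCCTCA
Cyp2a5 (chr7:26835089-26835338, plus strand): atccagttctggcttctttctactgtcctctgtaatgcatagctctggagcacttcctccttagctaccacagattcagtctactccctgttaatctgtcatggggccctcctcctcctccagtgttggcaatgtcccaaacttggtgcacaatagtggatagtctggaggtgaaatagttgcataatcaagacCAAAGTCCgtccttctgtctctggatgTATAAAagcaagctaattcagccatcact
The motifs were TGACNNNGC and TGAGNNNGC, both forms of the antioxidant response element core, CAAAGTCC, a form of the HNF4A site, and TATAAA. Of 32851 mouse promoter windows of the same length, 10.2% held TGACNNNGC, 14.4% held TGAGNNNGC, 1.2% held CAAAGTCC and 12.4% held TATAAA. The Gsta1 window had no match to these motifs. The Gsta2 window held TATAAA on the opposite strand at -246 to -241, counted from the start. The Gstp1 window held TGAGNNNGC at -74 to -66 and, on the opposite strand, at -9 to -1. The Cyp2a5 window held CAAAGTCC at -56 to -49 and TATAAA at -29 to -24. After global alignment the Gsta1 and Gsta2 windows were identical at 184 of 250 bases (73.6%), against 49.6% or more and at most 150 of 250 bases for the other pairs among 7 of the 8 genes. These matches describe the letters, not binding.

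Gsta1 had the largest glycerol difference of the 8 genes in both genotypes. It encodes an alpha-class transferase and lies on the plus strand of chromosome 9 at 78230656 to 78242684 (GRCm38, GENCODE M21). Libraries 1 to 4 of the WT glycerol group had 2869.0, 5105.9, 4493.2 and 2878.5 normalized counts, against 19.8, 20.2, 3.7 and 18.7 in WT PBS libraries. After glycerol C3-/- kidneys had 5800.1, 4496.9, 4533.3 and 8723.1 normalized counts, against 55.4, 38.9, 62.0 and 19.4 in C3-/- PBS libraries. Every glycerol library was above every PBS library by more than an order of magnitude. The log2 difference, on the scale of log2(normalized count + 1), was 8.03 ± 0.47 in WT (SE of the fit, n = 4 each) and 7.10 ± 0.47 in C3-/-. The repeated-number libraries did not stand above the others for Gsta1: their mean was 0.782 times that of the other C3-/- glycerol libraries, and WT glycerol library 4 was at 0.693 times the mean of the other WT glycerol libraries.

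Gsta2, on the minus strand of chromosome 9 at 78331018 to 78355788, encodes a closely related enzyme and had a far higher level in PBS kidneys. Normalized counts of Gsta2 in WT glycerol libraries were 8793.2, 6378.5, 11399.0 and 5483.1, against 3946.8, 4345.7, 4126.5 and 4850.9 in WT PBS libraries. They were 8511.5, 16056.9, 9430.0 and 15760.7 in C3-/- glycerol libraries, against 13873.4, 13637.8, 13284.4 and 6299.7 in C3-/- PBS libraries. The WT groups did not overlap, with glycerol higher, and the C3-/- groups did. The log2 difference was 0.84 ± 0.30 in WT and 0.09 ± 0.30 in C3-/-. The ratio of Gsta2 to Gsta1 was 1.25 to 3.57 in the glycerol libraries and 199 to 1130 in the PBS libraries, so the levels of this pair came much closer together after glycerol. Per kilobase of exon, Gsta1 averaged 4010 ± 1190 normalized counts in WT glycerol kidneys and 16.3 ± 8.35 in WT PBS kidneys (SD, n = 4 each). Gsta2 averaged 6810 ± 2250 per kilobase in WT glycerol kidneys and 3670 ± 332 in WT PBS kidneys.

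The Gsta1 values cannot be told apart fully from those of its copies. Of the 50-base windows of its transcripts, 90.5% occur in another gene, 75.7% in the predicted gene Gm3776 and 46.6% in Gsta2, and the sources used here do not say how the authors' counting treated such reads. Gm3776 had 1291.9 to 3647.4 normalized counts in WT glycerol libraries and 0.0 to 9.0 in WT PBS libraries. In C3-/- kidneys it had 1780.3 to 7175.0 after glycerol and 0.0 to 18.3 after PBS. Gsta1 and this copy showed the same split between glycerol and PBS. The shared part was 49.8% for Gsta2 and 0.0% for Gsta4.

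**Figure D1:**
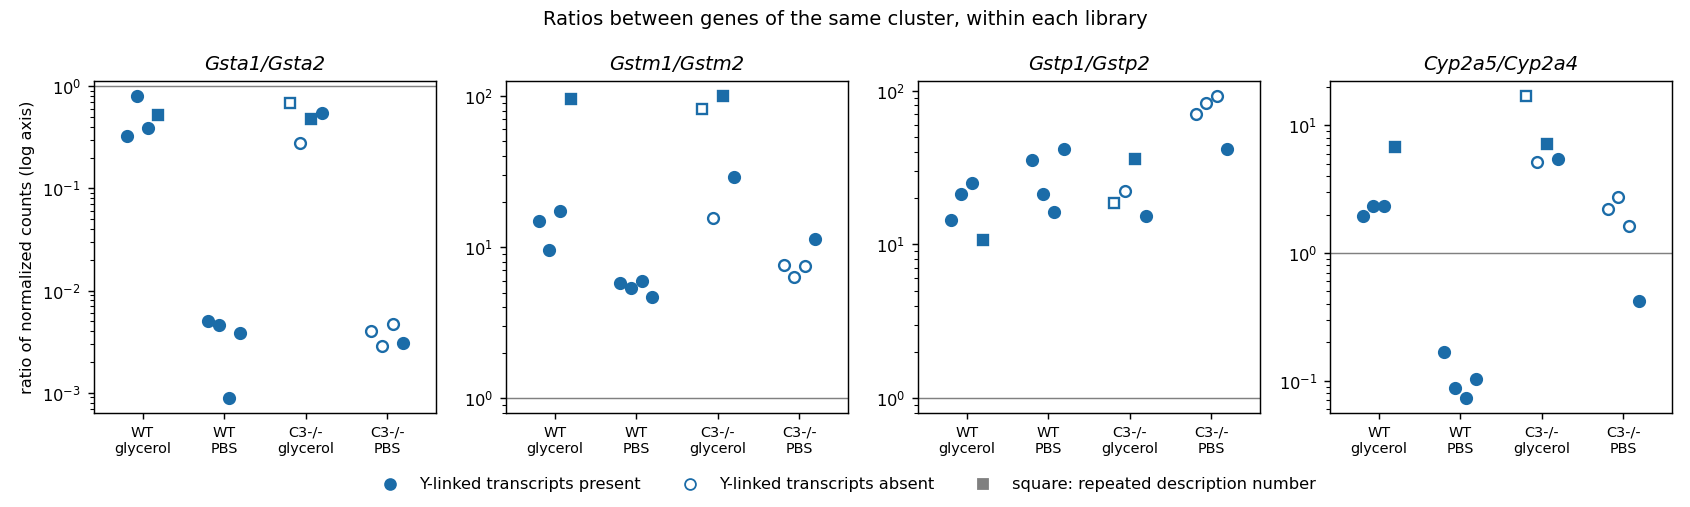
Ratio of normalized counts between genes of the same cluster in each library (log axis), for 4 libraries in each of the 4 groups; filled symbols have Y-linked transcripts and squares are the repeated-number libraries. Gsta1/Gsta2 lies between 0.28 and 0.8 after glycerol and between 0.000886 and 0.00502 after PBS, and Cyp2a5/Cyp2a4 is lowest in the WT PBS libraries, at 0.073 to 0.169.

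Gsta4, on the plus strand of chromosome 9 at 78182774 to 78209349, encodes the alpha-class enzyme best known for conjugating hydroxynonenal, a product of lipid peroxidation. WT glycerol libraries had 1862.1, 1892.2, 2270.7 and 1729.4 normalized counts, against 633.7, 630.1, 570.9 and 651.0 in WT PBS libraries. C3-/- glycerol libraries had 13474.6, 11117.6, 2623.1 and 2882.0, against 2569.7, 2554.5, 2404.8 and 542.7 in C3-/- PBS libraries. The glycerol libraries lay above the PBS libraries in each genotype, and each C3-/- group fell into a high and a low set, the high set being the libraries without Y-linked transcripts. The mean of the libraries without them was 4.47 times that of the libraries with them in C3-/- glycerol kidneys, and 4.62 times the single value with them in C3-/- PBS kidneys. The log2 difference between glycerol and PBS was 1.63 ± 0.54 in WT and 1.76 ± 0.54 in C3-/-. Y-linked transcripts were present in C3-/- glycerol libraries 3 and 4 but only in PBS library 4, so the C3-/- difference is not balanced for them. Over the alternatives other than leaving out 1 library, it ran from 1.72 to 2.33 in C3-/-. C3-/- libraries with Y-linked transcripts had 2623.1 and 2882.0 after glycerol, above the 4 WT glycerol libraries, and 542.7 after PBS, below the 4 WT PBS libraries.

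Gstm1 encodes a mu-class transferase and lies on the minus strand of chromosome 3 at 108012255 to 108017973. Gstm1 reached 11484.4, 9529.7, 12955.7 and 108432.0 normalized counts in WT glycerol libraries, against 7940.5, 7907.6, 7242.1 and 6796.6 in WT PBS libraries. It reached 207685.7, 20886.4, 110752.3 and 24797.1 in C3-/- glycerol libraries, against 12653.8, 11653.6, 11817.5 and 13005.9 in C3-/- PBS libraries. Glycerol and PBS groups did not overlap in either genotype, and the 3 highest values were those of the repeated-number libraries. The log2 difference was 1.41 ± 0.74 in WT and 2.26 ± 0.74 in C3-/-, and 0.59 in WT and 0.89 in C3-/- without those 3 libraries. Leaving out C3-/- glycerol library 1 alone gave 1.65 in C3-/-. In C3-/- glycerol library 1, Gstm1 made up 0.58% of the library's total and ranked 19 among all genes.

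Gstp1, the pi-class transferase, lies on the minus strand of chromosome 19 at 4035407 to 4037985. WT glycerol libraries had 7643.6, 7280.5, 9794.1 and 28287.0 normalized counts, against 3029.0, 2902.5, 2582.9 and 2753.0 in WT PBS libraries. C3-/- glycerol libraries had 31496.1, 9700.5, 48734.7 and 10821.1, against 2249.7, 2575.3, 2161.7 and 3478.6 in C3-/- PBS libraries. Every glycerol library was above every PBS library, and the repeated-number libraries were again the highest of their groups. The log2 difference was 1.99 ± 0.49 in WT and 2.96 ± 0.49 in C3-/-, and 1.54 in WT and 2.0 in C3-/- without the repeated-number libraries. Of its transcript windows, 33.7% also occur in another gene, its neighbour Gstp2.

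Cyp2a5 had the highest single values of the set. It lies on the plus strand of chromosome 7 at 26835305 to 26843548. Cyp2a5 stood at 20729.8, 17780.9, 34624.8 and 242628.8 normalized counts in WT glycerol libraries, against 2430.5, 1123.6, 910.1 and 1110.0 in WT PBS libraries. It stood at 418110.7, 22879.2, 270612.8 and 61920.6 in C3-/- glycerol libraries, against 1315.3, 1177.5, 1140.2 and 2467.6 in C3-/- PBS libraries. The lowest glycerol library of each genotype was far above the highest PBS library. The log2 difference was 5.02 ± 0.87 in WT and 6.28 ± 0.87 in C3-/-, and 4.18 in WT and 4.70 in C3-/- without the repeated-number libraries. Leaving out 1 library, it was 5.65 in C3-/- without glycerol library 1 and 7.05 without glycerol library 2. In C3-/- glycerol library 1, Cyp2a5 made up 1.17% of the total and ranked 12 among all genes, while its rank in the PBS libraries lay between 2155 and 5540.

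Within the glycerol groups the repeated-number libraries stood apart for Cyp2a5, Gstm1 and Gstp1. For Cyp2a5 the mean of the repeated-number libraries was 8.12 times that of the others within C3-/- glycerol and 9.95 times within WT glycerol. For Gstm1 these ratios were 6.97 in C3-/- and 9.58 in WT kidneys, and for Gstp1 they were 3.91 and 3.43. Gsta2 was lower in the repeated-number libraries, at 0.564 times the others in C3-/- and 0.619 times in WT kidneys. The glycerol libraries outside this set were still above the PBS libraries of their genotype for Cyp2a5, Gstm1 and Gstp1. Cyp2a5 is abundant in liver, and the 10 hepatocyte markers, all detected, summed to 2263 to 4187 normalized counts in the repeated-number libraries. Those sums were 1898 to 4353 in WT glycerol and 4067 to 5630 in WT PBS libraries, and 2097 to 4187 in C3-/- glycerol and 974 to 3257 in C3-/- PBS libraries. In the repeated-number libraries Cps1, Tat and Cyp3a11 stood at 0 to 1.1, 0 to 6.2 and 0 to 2.2 normalized counts, F2 at 5.2 to 11.2 and Ahsg at 5.9 to 37.2. The other 5 markers were well detected there, with Alb at 202.8 to 373.3, Apoa1 at 108.7 to 518.5, Serpina1a at 49.3 to 1300.5, Serpina1b at 194.0 to 1498.8 and Ttr at 987.0 to 1604.9. Apoa1 and Serpina1b had their highest value of the 16 libraries in a repeated-number library, and the part of such transcripts in the Cyp2a5 result was not tested.

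Gstm2, a mu-class neighbour of Gstm1, lies on the minus strand of chromosome 3 at 107981702 to 107986453. It had 772.5, 995.5, 751.0 and 1136.3 normalized counts in WT glycerol libraries, against 1381.9, 1469.4, 1217.4 and 1447.9 in WT PBS libraries. It had 2535.5, 1340.7, 1112.4 and 855.6 in C3-/- glycerol libraries, against 1665.2, 1844.8, 1575.7 and 1151.5 in C3-/- PBS libraries. Glycerol libraries were lower without overlap in WT, with a log2 difference of -0.61 ± 0.27, while the C3-/- groups overlapped, at -0.20 ± 0.27.

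Gstm3, also mu-class, lies on the minus strand of chromosome 3 at 107963696 to 107969283 and had low values outside a single group. C3-/- glycerol libraries had 31.6, 37.5, 37.2 and 35.9 normalized counts, against 5.9, 8.6, 5.4 and 1.0 in C3-/- PBS libraries. WT glycerol libraries had 9.4, 2.7, 7.8 and 8.4, against 1.7, 0.9, 2.4 and 5.0 in WT PBS libraries. The C3-/- glycerol group stood clear of the other 3 groups, with its 4 values close together. The log2 difference between glycerol and PBS was 2.75 ± 0.51 in C3-/- and 1.23 ± 0.51 in WT, where the groups overlapped. All 8 genes passed the filter of at least 10 in at least 4 libraries, Gstm3 through the C3-/- glycerol group alone. Of its transcript windows, 28.8% occur in another gene.

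**Figure D2:**
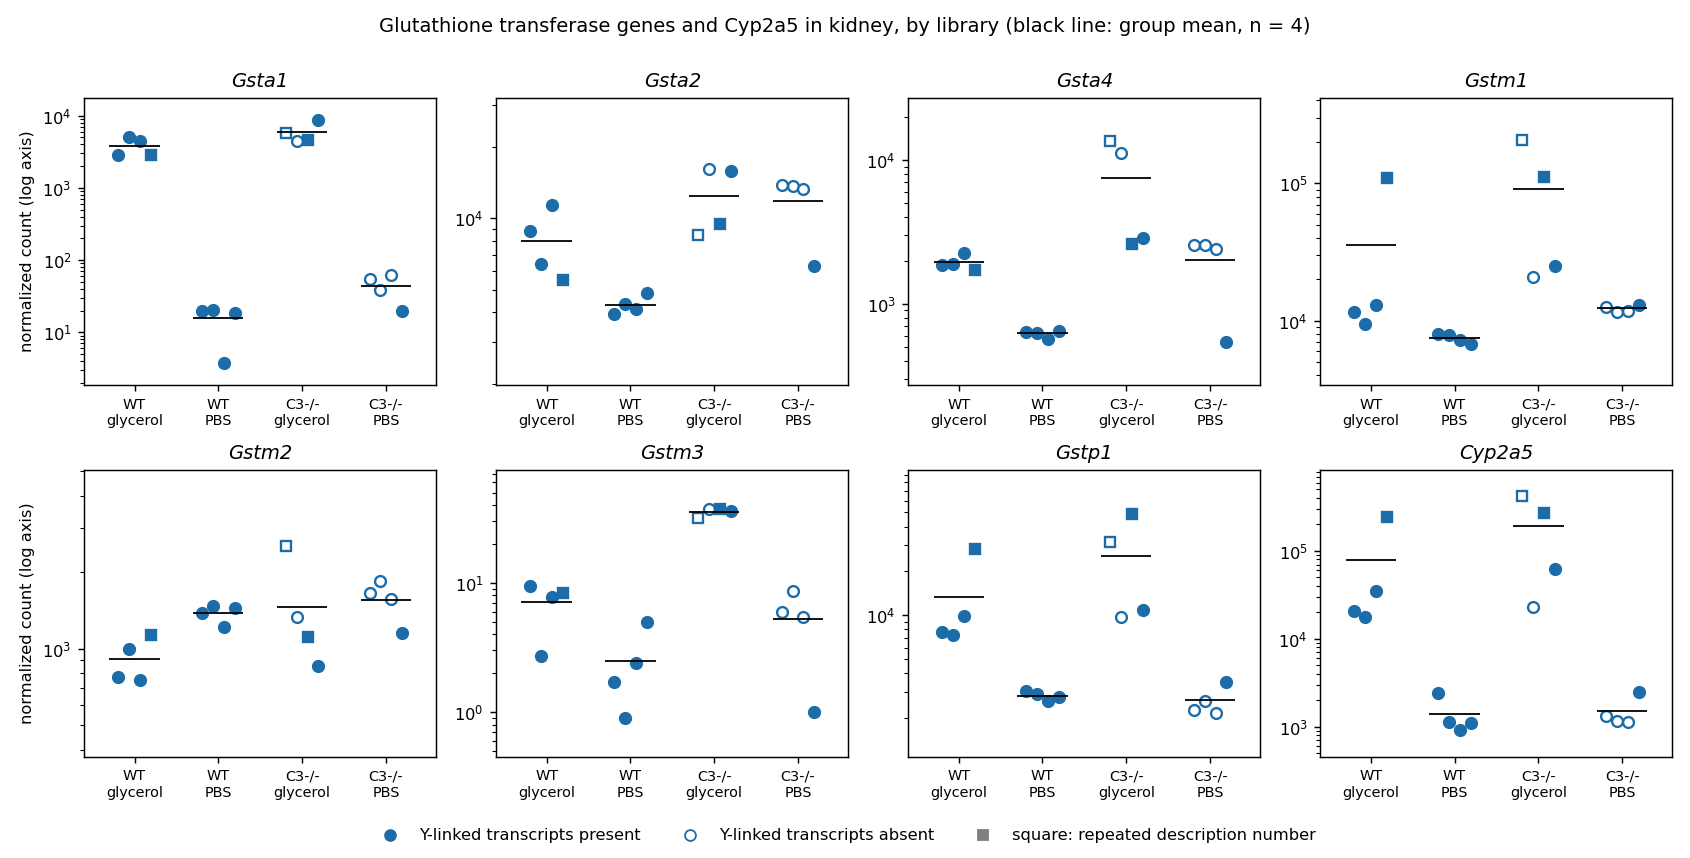
Normalized count of each of the 8 genes in every library (log axis), glycerol left of PBS in each genotype, with a line at the mean of 4 libraries; filled symbols have Y-linked transcripts and squares are the repeated-number libraries. Gsta1 separates glycerol from PBS in all libraries, Gsta4 splits the C3-/- libraries by Y-linked transcripts, and the squares are highest for Gstm1, Gstp1 and Cyp2a5.

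In WT, 6 of the 8 genes were higher after glycerol without overlap of the groups, where 18.2% of the 18035 genes tested were, and 1 was lower, where 22.4% were. In C3-/-, 6 of the 8 were higher without overlap, where 9.53% of the genes tested were, and 0 were lower, where 9.71% were. The choice of the genes used these contrasts, so nothing is read from the counts. Gsta1, Gsta4, Gstm1, Gstp1 and Cyp2a5 were in both counts of higher genes, Gsta2 in that of WT and Gstm3 in that of C3-/-.

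Differences between the genotypes were tested with limma, with Benjamini-Hochberg adjustment over all 18035 genes. The C3 transcript gives no check of these labels, so each direction is that of the libraries as labelled. Ugt2b38, a conjugation gene outside the 8, had 2870.7 to 14728.1 normalized counts in WT glycerol and 25169.2 to 34559.9 in WT PBS libraries. It had 0.9 to 7.8 in C3-/- glycerol and 1.0 to 12.7 in C3-/- PBS libraries. The labelled genotypes thus also differed in a gene beyond the targeted one, and the cause was not tested. After glycerol, 1 of the 8 genes, Gstm3, passed an adjusted p of 0.05, as higher in C3-/- kidneys; of all genes tested, 11.2% passed in either direction and 6.38% as higher. Gstm3 entered this test only through the group in which it was high, so its call is given as a description and supports nothing about the 8 genes. Gstm3 averaged 35.57 ± 2.71 normalized counts in C3-/- glycerol libraries and 7.077 ± 2.98 in WT glycerol libraries (SD, n = 4 each). The log2 difference was 2.28 ± 0.51 (limma adjusted p = 0.0094), and Gstm3 was higher in 4 of 4 C3-/- glycerol libraries than in any WT glycerol library. With no filter on low values, where no group decides which genes enter, the limma adjusted p was 0.00905. The authors' deposited table gives a log2 fold change of 2.34 with an adjusted p of 2.17e-05. Both come from the same libraries and are no separate support for the call.

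Gsta4 was higher in all 4 C3-/- glycerol libraries than in any WT glycerol library, by 1.59 ± 0.54 on the log2 scale, and missed the threshold (limma adjusted p = 0.0744). With the presence of Y-linked transcripts as a covariate the Gsta4 difference was 0.50 ± 0.14 (limma adjusted p = 0.0397). The authors' deposited table lists 1.96 for Gsta4, with an adjusted p of 0.00171. Gsta4 and Gstm3 were the 2 of the 8 genes that were higher in C3-/- without overlap, where 6.21% of the genes tested were. For the other 6 genes the log2 differences were positive, between 0.57 for Gstm2 and 1.57 for Gstm1, with adjusted p between 0.205 and 0.467 in limma. Without the repeated-number libraries the Gstm1 difference was 1.02 ± 0.13 (limma adjusted p = 0.0002) and that of Gsta2 was 0.89 ± 0.31 (limma adjusted p = 0.0464). There 30.1% of all genes passed. Without WT glycerol library 4 alone, Gstm1, Gstp1 and Cyp2a5 passed, at 2.39, 1.29 and 2.27 (limma adjusted p = 0.0121, 0.0447 and 0.0434). In that fit 4396 of the 18035 genes passed. It left repeated-number libraries, which were high for these genes, only in the C3-/- glycerol group. Genotype label and repeated numbers are therefore mixed in these differences. Gsta4 passed without C3-/- glycerol library 3, C3-/- glycerol library 4 or C3-/- PBS library 4 (limma adjusted p = 0.0373, 0.0359 and 0.0291). These are the C3-/- libraries with Y-linked transcripts. Leaving out either glycerol library left the C3-/- glycerol group less like the WT glycerol group in that feature. The PBS library is in neither glycerol group and enters this comparison only through the spread, which was estimated over all groups. With the repeated numbers as a covariate Gsta2, Gsta4 and Gstm1 passed (limma adjusted p = 0.016, 0.042 and 0.00354), and with both covariates Gsta4, Gstm1 and Gstp1 did (limma adjusted p = 0.00365, 0.0117 and 0.00346). Of the 18035 genes, 5720 and 6068 passed in these fits, so nothing is read from the number of the 8 genes that passed.

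After PBS, 1 of the 8 genes, Gsta2, passed as higher in C3-/- kidneys, where 2.23% of all genes tested passed in either direction and 1.04% as higher. The mean of Gsta2 was 2.73 times as high in C3-/- PBS libraries as in WT PBS libraries, and the log2 difference was 1.38 ± 0.30 (limma adjusted p = 0.0231), with all 4 C3-/- libraries above the 4 WT libraries. With Y-linked transcripts as a covariate it was 1.05 ± 0.37 and did not pass (limma adjusted p = 0.412), while with both covariates it did (limma adjusted p = 0.0361). With both covariates 628 of the 18035 genes passed. The call was also lost with every library scaled to an equal total (0.0825) and without any 1 of C3-/- PBS libraries 1 to 3 or of the WT PBS libraries (limma adjusted p between 0.0565 and 0.103). Gsta2 and Gstm1 were the 2 genes without overlap in this comparison, where 13.9% of all genes were higher without overlap. Gstm1 differed by 0.72 ± 0.74 (limma adjusted p = 1), and by 0.72 ± 0.10 without the repeated-number libraries, which all lie in the glycerol groups (limma adjusted p = 0.00059, where 19.3% of all genes passed). Gsta1 averaged 43.93 ± 19.0 normalized counts in C3-/- PBS libraries and 15.59 ± 7.98 in WT PBS libraries (SD, n = 4 each), a log2 difference of 1.54 ± 0.47 that missed the threshold (limma adjusted p = 0.132). It passed without the repeated-number libraries (limma adjusted p = 0.0468) and without C3-/- PBS library 4 (limma adjusted p = 0.0455), where Gsta4 passed as well (limma adjusted p = 0.0279). Leaving out C3-/- PBS library 4, 549 of the 18035 genes passed. That library is the only C3-/- PBS library with Y-linked transcripts. Without it, genotype label and Y-linked transcripts cannot be told apart after PBS. Gstm1 also passed with the repeated numbers as a covariate (limma adjusted p = 0.0198), where 1510 of the 18035 genes passed.

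Gsta4 showed the strongest dependence on Y-linked transcripts of the 8 genes. Its C3-/- difference after PBS was 1.46 ± 0.54 (limma adjusted p = 0.253), and -0.17 ± 0.16 with Y-linked transcripts as a covariate. In the fit with both covariates the term for Y-linked transcripts was -2.18 ± 0.09 for Gsta4, -0.76 ± 0.14 for Gstm2 and between -0.76 and 0.67 for the other 6 genes. The term for the repeated-number libraries was 3.25 ± 0.41 for Cyp2a5, 2.97 ± 0.20 for Gstm1 and 1.87 ± 0.12 for Gstp1, on the log2 scale. All WT libraries had Y-linked transcripts, so these terms rest on the C3-/- libraries for the Y chromosome and on the glycerol libraries for the repeated numbers. The labels give no sex or batch, and neither feature was part of the design.

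**Figure D3:**
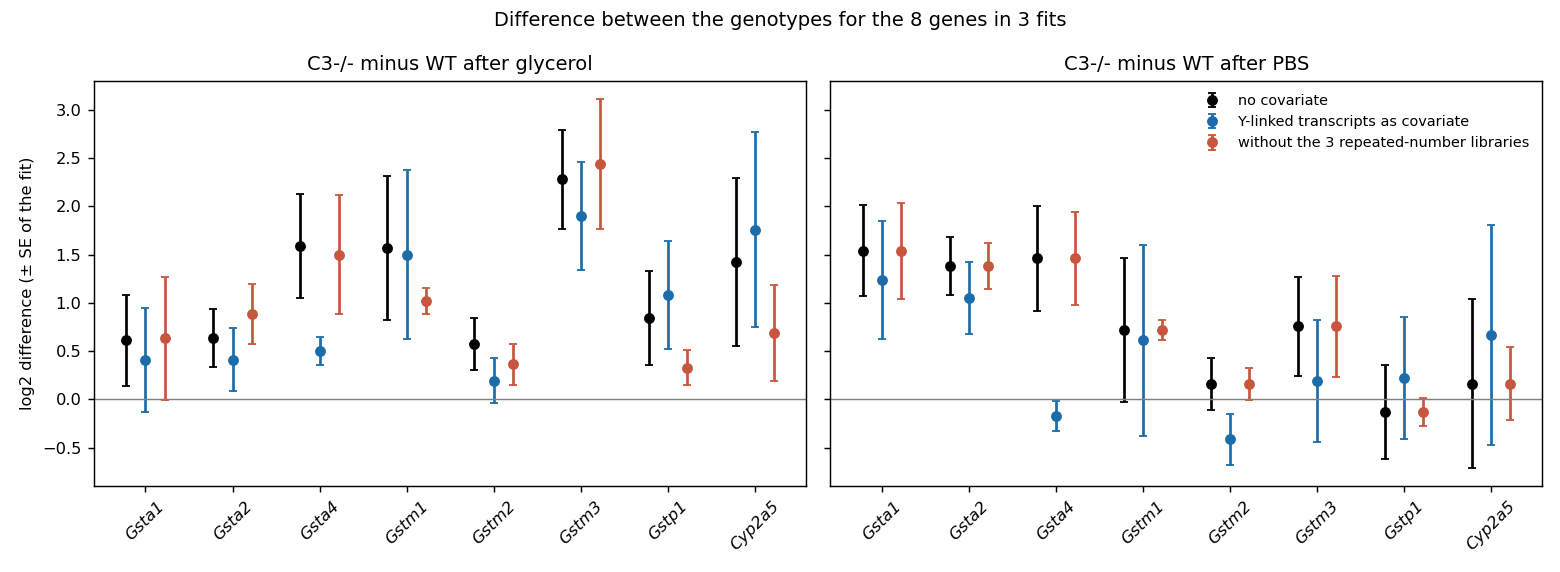
Log2 difference between C3-/- and WT kidneys (± SE of the fit) for the 8 genes, after glycerol (left) and after PBS (right), in 3 fits: no covariate, Y-linked transcripts as a covariate, and without the 3 repeated-number libraries. For Gsta4 the difference is 1.59 and 1.46 with no covariate and 0.50 and -0.17 with the covariate, and Gstm3 after glycerol stays between 1.90 and 2.43.

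A difference between the genotypes in the glycerol response was tested as an interaction. In limma 0 of the 8 passed the interaction test, and 0 had an unadjusted p under 0.05, where 0.438% of the genes tested passed after adjustment. The largest interaction was that of Gstm3, at 1.52 ± 0.73 (limma adjusted p = 0.495). For Gsta4 the interaction was 0.13 ± 0.76 (limma adjusted p = 0.994), and 0.68 ± 0.14 with both covariates in the fit (limma adjusted p = 0.01). In the fit with both covariates 1580 of the 18035 genes passed the interaction test. Intervals were wide for Cyp2a5 and Gstm1, whose SE were 1.23 and 1.05.

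The other glutathione transferases went in both directions after glycerol, also within a class. Of 17 further family genes tested in WT, 6 rose and 6 fell, with a median log2 difference of 0.07 against -0.11 over all genes, where 25.9% of all genes passed. The pi-class neighbours of Gstp1 rose: Gstp3 by 4.39 ± 0.79 (limma adjusted p = 0.00102) and Gstp2 by 2.64 ± 0.62 (limma adjusted p = 0.00594). Gstp3 had 60.6, 36.2, 74.9 and 358.9 normalized counts in WT glycerol libraries, against 1.7, 5.1, 2.3 and 4.9 in WT PBS libraries. Among mu-class genes Gstm6 rose by 1.66 ± 0.27 and Gstm7 fell by 1.32 on the log2 scale, and the kappa-class Gstk1, a mitochondrial and peroxisomal enzyme, fell by 1.58 (limma adjusted p = 0.000483, 0.000883 and 6.87e-05). In the omega class Gsto1 rose by 1.12 ± 0.28 and Gsto2 fell by 1.46 on the log2 scale (limma adjusted p = 0.00885 and 0.00624). Gsta3, the alpha-class gene on chromosome 1, differed by 0.42 ± 0.28 (limma adjusted p = 0.29).

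In C3-/-, 4 of the 17 rose and 1 fell, with a median of 0.10 against -0.06 over all genes, where 5.63% passed. Gstp3 rose by 5.39 ± 0.79, Gstp2 by 4.57 ± 0.62 and Gstm6 by 2.32 ± 0.27, and Gstk1 fell by 1.00 (limma adjusted p = 0.00111, 0.000603, 0.000194 and 0.00761). Without the repeated-number libraries 6 rose and 6 fell in C3-/-, where 23% of all genes passed, and 8 rose and 8 fell in WT, where 55.6% passed. Leaving out C3-/- glycerol library 3 alone, or WT glycerol library 4 alone, left 8 genes past the threshold in C3-/-. Within the pi class the repeated-number libraries were again high: the C3-/- glycerol libraries had 119.7, 29.9, 395.7 and 66.6 normalized counts of Gstp3, against 1.7, 0.0, 1.5 and 3.9 in the C3-/- PBS libraries.

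**Figure D4:**
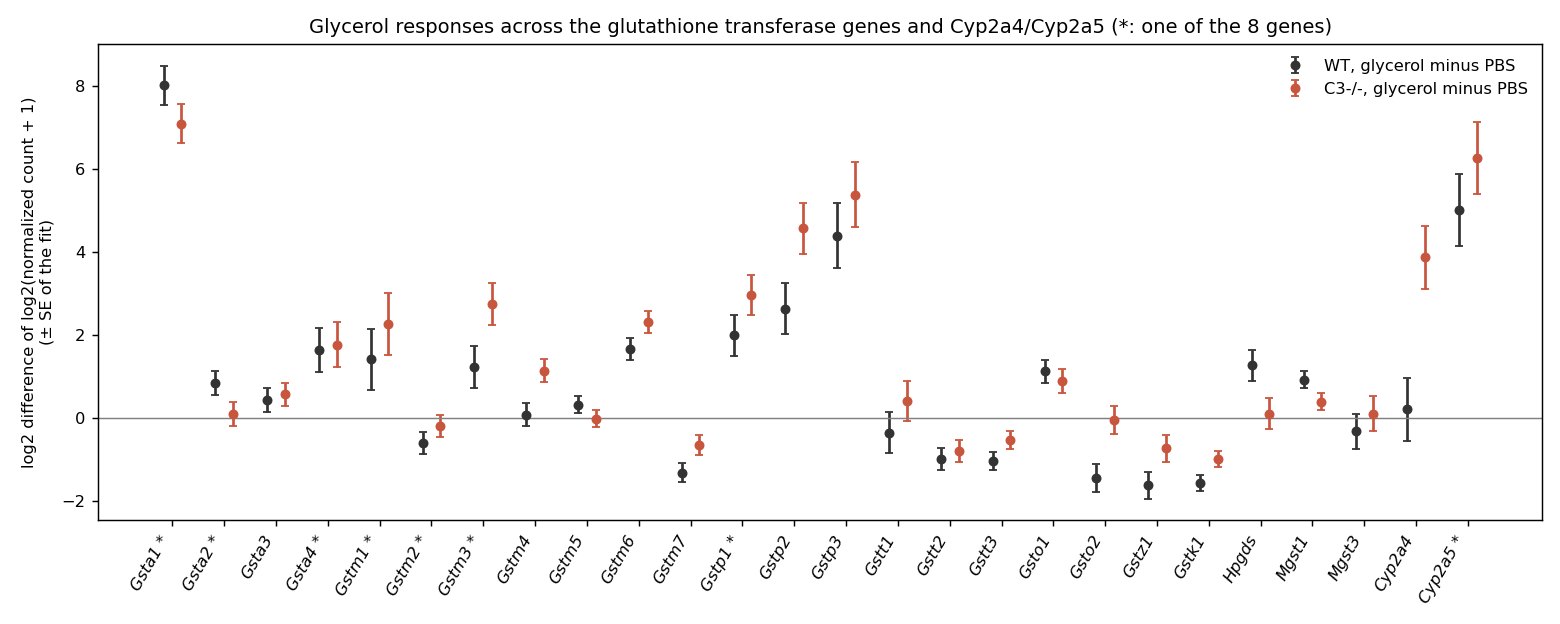
Log2 difference between glycerol and PBS (± SE of the fit, n = 4 libraries each) in WT (black) and C3-/- (red) kidneys for 24 glutathione transferase family genes, Cyp2a4 and Cyp2a5, grouped by class; asterisks mark the 8 genes. Gsta1 and Cyp2a5 are highest, the 3 pi-class genes are all above 0, and Gstk1, Gstz1 and the theta-class genes Gstt2 and Gstt3 are below 0 in both genotypes, while the theta-class Gstt1 is at -0.36 in WT and 0.40 in C3-/-.

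After glycerol, 6 of the 17 other family genes were higher and 1 was lower in C3-/- than in WT kidneys, where 11.2% of all genes passed, with a median of 0.78 against 0.04 over all genes. The 6 included the mu-class genes Gstm4, Gstm6 and Gstm7, while the mu-class Gstm5 differed by 0.17 ± 0.21 (limma adjusted p = 0.658), and Gstm1 and Gstm2 did not pass. Gstm7 had 296.8, 208.0, 206.4 and 196.6 normalized counts in C3-/- glycerol libraries, against 67.4, 50.4, 81.0 and 81.4 in WT glycerol libraries. It differed by 1.69 ± 0.23 (limma adjusted p = 0.000276). Gstm6 and Gstm4, named after their values were seen, each differed by 1.27 (limma adjusted p = 0.00605 and 0.00733), and these 3 calls held in every alternative run. Gsto2, an omega-class gene, was higher by 1.99 ± 0.34 and Gstk1 by 1.10 ± 0.20, while Hpgds, the hematopoietic prostaglandin D synthase of this family, fell by 1.94 (limma adjusted p = 0.00168, 0.00213 and 0.00348). Without the repeated-number libraries 11 genes were higher and 1 was lower, where 30.1% of all genes passed. Leaving out WT glycerol library 4 alone, 11 passed, where 4396 of 18035 genes did. Repeated-number libraries then remained only in the C3-/- glycerol group. After PBS 1 of the 17, Gstm7, was higher (1.02 ± 0.23, limma adjusted p = 0.0313), and with Y-linked transcripts as a covariate it did not pass (limma adjusted p = 0.54). This call was also lost without any 1 of C3-/- PBS libraries 1 to 3 or of the WT PBS libraries (limma adjusted p between 0.0571 and 0.134).

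Cyp2a4, a steroid hydroxylase gene close to Cyp2a5 in sequence, lies on chromosome 7 at 26307169 to 26315088. WT glycerol libraries had 10659.5, 7582.5, 14933.4 and 35836.1 normalized counts of Cyp2a4, against 14376.0, 12758.5, 12463.7 and 10739.3 in WT PBS libraries. C3-/- glycerol libraries had 24799.9, 4478.2, 37878.1 and 11416.7, against 596.4, 428.9, 696.2 and 5814.9 in C3-/- PBS libraries. The WT groups overlapped (0.20 ± 0.76, limma adjusted p = 0.865), and in C3-/- kidneys it rose by 3.87 ± 0.76, although glycerol library 2 lay under PBS library 4 (limma adjusted p = 0.00792). Cyp2a5 exceeded Cyp2a4 in all glycerol libraries, at ratios of 1.94 to 16.9, and was below it in the WT PBS libraries, at 0.073 to 0.169. In C3-/- PBS libraries 1 to 4 the ratio was 2.21, 2.75, 1.64 and 0.424, so Cyp2a5 also exceeded Cyp2a4 without glycerol in libraries 1 to 3. After PBS Cyp2a4 fell by 3.63 in C3-/- relative to WT (limma adjusted p = 0.0194), and with Y-linked transcripts as a covariate by 2.13 (limma adjusted p = 0.468). The call was also lost without any 1 of C3-/- PBS libraries 1 to 3 or of the WT PBS libraries (limma adjusted p between 0.0539 and 0.0843). C3-/- PBS library 4, which has Y-linked transcripts, had 10.1 times the mean of the other C3-/- PBS libraries. The 2 genes share sequence: 28.1% of the Cyp2a5 windows occur in Cyp2a4.

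Most genes of other P450 enzymes and their partner proteins that passed in WT were lower after glycerol. Of 21 tested in WT, 6 fell and 1 rose, where 13.3% of all genes were called lower and 12.5% higher. Their median was -1.56 against -0.11 over all genes. The gene that rose was Cyb5r3, a cytochrome b5 reductase and no P450, by 0.66 (limma adjusted p = 0.0252). This call was lost without WT glycerol library 4 or any 1 of WT PBS libraries 2 to 4 (limma adjusted p between 0.0509 and 0.0653). The log2 difference was -3.37 for Cyp2d26, -3.48 for Cyp2d12, -1.56 for the sterol demethylase Cyp51 and -1.92 for Cyp2j5, an arachidonic acid epoxygenase (limma adjusted p = 3.03e-06, 1.64e-05, 0.000188 and 0.00537). In C3-/- 4 fell and 2 rose, where 5.63% of all genes passed, and those that rose were Cyp2a4 and Cyb5r3. Cyb5r3 rose by 0.79 (limma adjusted p = 0.0329), a call lost in 10 of the alternatives. Without the repeated-number libraries 11 fell and 1 rose in WT, where 5218 of 18035 genes were called lower and 4810 higher. In C3-/- 4 fell and 4 rose in that fit, where 23% of all genes passed. Proximal tubule markers moved in the same direction as these P450 genes: 8 of 12 fell in WT, and their summed level was 203715 to 439087 in WT glycerol and 945080 to 1040999 in WT PBS libraries. In C3-/- the sums were 113040 to 778574 after glycerol and 405330 to 992239 after PBS, and 1 of 12 fell. Kap, 1 of the 12 markers, ran from 33977.9 to 744107.6 normalized counts over the libraries, so a sum can rest largely on this gene. The next highest marker, Slc34a1, reached 158390.4. The part of the proximal tubule markers in the P450 result was not tested.

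Of 21 genes of the Nrf2 pathway tested, 9 rose in WT, where 12.5% of all genes were called higher, and 10 rose in C3-/-, where 3.68% were, and the others did not pass. In WT the reductases Akr1b8 and Cbr3 rose by 4.92 ± 0.40 and 3.02 ± 0.35, the small Maf factor Maff by 3.72 ± 0.35 and heme oxygenase Hmox1 by 3.46 ± 0.43 (limma adjusted p = 2.59e-06, 3.87e-05, 7.69e-06 and 6.27e-05). In C3-/- Cbr3 rose by 3.97 ± 0.35, Hmox1 by 3.53 ± 0.43, Maff by 2.71 ± 0.35 and the autophagy receptor Sqstm1 by 1.89 ± 0.22 (limma adjusted p = 2.06e-05, 0.000269, 0.000471 and 0.000226). Nqo1, a quinone reductase, rose by 1.49 ± 0.21 in WT and 1.55 ± 0.21 in C3-/- (limma adjusted p = 0.000169 and 0.000608). The transcript of Nrf2 itself, Nfe2l2, differed by 0.30 ± 0.33 in WT and -0.16 ± 0.33 in C3-/- (limma adjusted p = 0.527 and 0.764). Leaving out the repeated-number libraries, 12 of 21 rose in each genotype and 2 fell in WT, where 55.6% of all genes passed in WT and 23% in C3-/-.

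Genes that supply and recycle glutathione moved in both directions in WT. Of 17 tested, 5 rose and 4 fell in WT, where 25.9% of all genes passed, and 5 rose in C3-/-, where 5.63% passed. Pgd and G6pdx, which make NADPH, rose by 1.79 ± 0.20 and 1.69 ± 0.21 in WT, and Chac1, which breaks glutathione down, by 3.92 ± 0.51, while the dipeptidase Dpep1 fell by 2.24 (limma adjusted p = 3.42e-05, 7.01e-05, 9.85e-05 and 0.000496). In C3-/- Chac1 rose by 4.22 ± 0.51, Pgd by 1.65 ± 0.20, G6pdx by 1.54 ± 0.21 and the glutathione reductase gene Gsr by 1.02 ± 0.20 (limma adjusted p = 0.000282, 0.000343, 0.000628 and 0.00877). The Gsr call was lost with equal library totals (limma adjusted p = 0.0602). The subunits of the rate-limiting ligase, Gclc and Gclm, differed by 0.81 ± 0.33 and 0.48 ± 0.23 in WT and by 0.44 ± 0.33 and 0.36 ± 0.23 in C3-/-, with adjusted p between 0.0851 and 0.385 in limma. Leaving out the repeated-number libraries, 7 rose and 7 fell in WT, where 55.6% of all genes passed, and 8 rose and 2 fell in C3-/-, where 23% passed. Leaving out C3-/- glycerol library 3 alone left 8 of the 17 past the threshold in C3-/-.

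Among 13 peroxidases and redoxins, 3 rose and 3 fell in WT, and 2 rose and 1 fell in C3-/-; over all genes 25.9% passed in WT and 5.63% in C3-/-, which also holds beside the next counts. Srxn1, the sulfiredoxin that restores peroxiredoxins, rose by 3.09 ± 0.37 in WT and 3.02 ± 0.37 in C3-/- (limma adjusted p = 4.85e-05 and 0.000289). Of 12 xenobiotic receptors and regulators of Cyp2a5, 2 rose and 3 fell in WT, and 1 rose in C3-/-. Cebpb, a leucine zipper factor, rose by 2.61 ± 0.53 in WT and 2.90 ± 0.53 in C3-/-, while Hnf4a, the factor whose site form was searched above, fell by 1.57 in WT (limma adjusted p = 0.00233, 0.00488 and 0.0084). Ppargc1a, a coactivator of oxidative metabolism, fell by 2.05 in WT (limma adjusted p = 0.000266). Of 16 genes of other conjugation reactions and conjugate export, 4 fell in WT, where 13.3% of all genes were called lower. In C3-/- 1 of the 16 fell, where 1.96% were called lower. Nat8f1 and Sult1d1 were among those that fell in WT, with log2 differences of -3.07 and -1.85 (limma adjusted p = 0.000615 and 0.000634). Without the repeated-number libraries 11 of the 13 peroxidases and redoxins passed in WT and 8 in C3-/-, 8 of the 12 regulators passed in WT and 3 in C3-/-, and 9 of the 16 conjugation genes passed in WT and 2 in C3-/-. In that fit 55.6% of all genes passed in WT and 23% in C3-/-, so the conjugation count in WT lies near the background. Without WT PBS library 2 alone, 3 of the regulators passed in WT, and leaving out single libraries left 1 or 2 of them past the threshold in C3-/- and 0 to 3 of the conjugation genes.

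Likeness to Gsta1 and Cyp2a5 was ranked without the genes of the set. Genes with symbols of predicted genes, such as Gm3776, of pseudogenes or of clones were also left out. Among the genes ranked, H2-Q1, Ptprn, Myc, Trib3 and Eif4ebp1 had values over the 16 libraries most like those of Gsta1. Their Pearson correlations were 0.972, 0.97, 0.97, 0.969 and 0.963 on the log2 scale. For Cyp2a5 the genes most like it were Psmb3, Blvrb, Atf5, Psmb4 and Pus1, with 0.984, 0.984, 0.979, 0.977 and 0.967. Psmb3 and Psmb4 encode proteasome subunits, Blvrb a biliverdin reductase and Atf5 a stress-response transcription factor, and Trib3 and Eif4ebp1 are known targets of the integrated stress response. The libraries share treatment, the repeated numbers and the authors' scaling, and these correlations are a description.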

How the data were processed

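RNA from 16 kidney libraries, 4 in each of the groups WT glycerol, WT PBS, C3-/- glycerol and C3-/- PBS, had been sequenced; groups follow the sample titles. The authors deposited a matrix of signal holding DESeq2-normalized read counts. The submitters' processing notes name STAR 2.7.1, DESeq2, R 3.6.1 and the build GRCm38, and the file headers name Ensembl release 96. The counting program, its use of strand and how it handled reads matching several genes are not given, so copies of a gene may share reads.

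The authors also deposited comparison tables that hold, for every gene, a log2 fold change with its SE, a test score and p-values; values printed from them run as C3-/- over WT.

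In each library 1.8% to 2.1% of the values above 0 were whole multiples of the lowest such value within 0.01, so whole reads were not recovered. Read depth is therefore unknown, count models were not used, and precision rests on the spread between 4 libraries a group. Library pairs with identical columns numbered 0.

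For tests, log2(normalized count + 1) of the 18035 genes with at least 10 in at least 4 libraries was fitted in limma 3.58.1 (R 4.3.3), using 1 coefficient per group over the 16 libraries and a trended variance. Glycerol was compared with PBS in each genotype, C3-/- with WT after each treatment, and the interaction was tested. Adjusted p-values are two-sided Benjamini-Hochberg values over all genes tested, with a threshold of 0.05. This scale understates changes of low genes such as Gstm3. The calculation was tested on simulated data.

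The 8 genes and 17 lists were chosen with earlier results of these data known. The ranking of genes most like Gsta1 and Cyp2a5 left out the 8 genes and symbols of predicted genes, pseudogenes or clones. Genes named beyond the 8 are up to 4 per list and contrast with the smallest p past the threshold, a set listed by name that includes Nfe2l2, Nqo1, Hmox1, Gclc, Gclm, Gsta3, Gstp2 and Cyp2a4, and the 5 genes most like Gsta1 and Cyp2a5 each; Gm3776, Gstm4 and Gstm6 were named after their values were seen.

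Alternatives changed the pseudocount (8), filter, scaling and variance trend, added a replicate block or covariates for repeated description numbers and Y-linked transcripts, and left out libraries. Gene positions and shared windows of 50 bases came from GENCODE M21, and promoters from RefSeq on GRCm38.p6, which gave entries for 7 of the 8 genes.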

Additional observations from a re-analysis of the deposited data

Results flagged for a closer look

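In 8 of the 32 sets of 4 libraries formed by the 8 genes and 4 groups, 1 library lay far from the other 3, by more than Dixon's 95% critical value for the gap over the range; chance gives about 1 in 20. WT glycerol library 4, a repeated-number library, was the high one for Gstm1 (108432 normalized counts), Gstp1 (28287) and Cyp2a5 (242628.8). C3-/- PBS library 4, the single library of its group with Y-linked transcripts, was the low one for Gsta2 (6299.7) and Gsta4 (542.7) and the high one for Cyp2a5 (2467.6). WT PBS library 1 was high for Cyp2a5 (2430.5), and WT PBS library 3 was low for Gsta1 (3.7).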

How the results depend on the processing

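Precision is limited by 4 libraries a group and an unknown read depth. Over all genes, calls as reported numbered 4666 for glycerol in WT, 1016 for glycerol in C3-/-, 2025 for C3-/- against WT after glycerol, 402 after PBS and 79 for the interaction. Without the 3 repeated-number libraries they were 10028, 4142, 5432, 3481 and 1858. With the repeated numbers as a covariate they were 8339, 2608, 5720, 1510 and 1324, and with both covariates 8886, 3393, 6068, 628 and 1580. Y-linked transcripts as a covariate left 157 after PBS. The interaction had 141 with a pseudocount of 8 and 42 with equal library totals. With equal totals the share of higher calls was 59.5% against 48.5% as reported for glycerol in WT, 76.7% against 65.3% in C3-/- and 61.9% against 50.6% for the interaction; in C3-/- it was 53.9% without the 3 libraries and 55% with both covariates. The cause of these shifts was not tested.

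Leaving out 1 library at a time gave 3446 to 5360, 492 to 2780, 1385 to 4396, 220 to 609 and 38 to 225 calls in the same order. The highest count came without WT glycerol library 4 in each of these except glycerol in WT. For glycerol in C3-/- there were 572 without C3-/- glycerol library 1, 1595 without library 2 and 1568 without library 4, and 492 to 544 without any 1 of C3-/- PBS libraries 1 to 3. After PBS there were 220 to 255 without any 1 of C3-/- PBS libraries 1 to 3 or of the WT PBS libraries. The interaction had 179 without C3-/- glycerol library 1, 47 without WT glycerol library 1, and 38 to 43 without any 1 of C3-/- PBS libraries 1 to 3 or of the WT PBS libraries.

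Replicate numbers did not pair the samples: correlations of same-numbered deviations ran from -0.692 to 0.385. With a replicate block glycerol in C3-/- had 632 calls and the interaction 41, and Gsta2 after PBS no longer passed (limma adjusted p = 0.0586).

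The C3-/- difference after PBS changed sign with Y-linked transcripts as a covariate, alone or with the repeated numbers, for Gsta4 (-0.17), Gstm2 (-0.41) and Gstp1 (0.23). Leaving out single libraries, it ran from -0.093 to 0.47 for Cyp2a5 (below 0 without C3-/- PBS library 4 or WT PBS library 3), and the interaction of Gsta4 from -0.43 to 0.51.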
